A study of Mus musculus with 6 samples.

Results

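The genes described here fold proteins in the endoplasmic reticulum (ER), modify and carry collagen there, or respond when unfolded protein accumulates. They are 37 genes chosen by symbol, of 24080 in the deposited table, and all 37 were found by Ensembl identifier. Each of the 37 also reached 10 normalized counts in 3 or more libraries and was tested, with 14032 genes in all. RNA was sequenced from 2 lines of mouse endothelial cells, with 3 libraries of each. The VEC-null line was derived from embryonic stem cells that are homozygous for a null mutation of the gene of vascular endothelial cadherin (VEC), the adhesion protein of endothelial junctions. VEC-positive cells are that same line after retroviral transfer of wild-type VEC, so they also carry the null mutation in the endogenous gene. Culture was at the same temperature and CO2 for both, with no other agent named. No animals were compared, and each group is 1 line. The study calls the libraries of a line biological replicates, and p-values measure the spread between them.

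Proteins that enter the ER meet heat shock family chaperones, lectins that hold their sugars, and oxidoreductases that form disulfide bonds. Collagen chains need more: hydroxylation of their prolines, isomerization of proline bonds, a chaperone of the finished triple helix, and a carrier for bulky cargo at the exit sites. When folding falls behind, the sensors IRE1, PERK and ATF6 start the unfolded protein response, which raises chaperones and the machinery that returns misfolded proteins to the cytosol for degradation. Endothelial cells secrete the collagen of basement membranes.

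The labels were checked first on *Cdh5*, which encodes VEC. It had 1334, 1439 and 1689 normalized counts (gene counts divided by a size factor for each library) in VEC-null 1, 2 and 3, against 794, 739 and 749.7 in VEC-positive 1, 2 and 3. *Cdh5* thus ran against the labels (log2 fold change -0.96, adjusted p = 0.000182 from limma), and whether reads of the null allele are counted was not tested. *Cldn5*, a tight junction gene that clustered VEC is known to induce, ran with them, at 9.18, 5.51 and 4.43 in VEC-null against 429, 512 and 434 in VEC-positive. Directions below are those of the libraries as labelled. Endothelial markers were abundant in both lines, with a summed level over 10 genes of 45667 to 48455 in VEC-null and 64904 to 66569.5 in VEC-positive. For 8 genes of mural cells and fibroblasts, cells that also make collagen, the sums were 65.4 to 87.2 and 197 to 207. Within that list *Dcn* was at or under 4.67 and *Col1a1* at or under 24.2 in every library, while *Pdgfrb* was at 95.6, 118 and 102 in VEC-positive and at most 1.77 in VEC-null. *Pdgfra* had means of 39.9 in VEC-null and 55.7 in VEC-positive, and *Des* of 2.55 and 7.10. *Acta2* (19.4 and 8.59), *Rgs5* (4.52 and 2.21) and *Tagln* (3.93 and 1.25) went the other way. Of the 3 genes of this list that were tested, only *Pdgfrb* passed. Recovered reads per library ranged from 6036155 to 14136376. Mitochondrial genes took 9.62% to 14.9% of reads in VEC-null and 18.0% to 24.2% in VEC-positive. With libraries scaled to equal totals of the other genes, 5 of the 37 were higher and 12 lower. Of all 14032 tested genes, 2051 were then higher and 3166 lower.

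One library, VEC-null 3, stood apart in many of these genes. It was the highest VEC-null library for 30 of the 37, where 49% of all tested genes had their highest VEC-null value there. For 12 of the 37 it was at least 1.5-fold above the mean of VEC-null 1 and 2, which held for 5.93% of tested genes, and it was that far below for 1 of the 37, against 15.1%. VEC-null 1 and 2 were that far above the other libraries of their line for 1 and 0 of the 37, against 8.12% and 7.65% of tested genes. It is a single library, so no test can be made of this, and calls and counts that change without it are given both ways. Blood cell genes (3 found) had a summed level of 418, 406 and 119.7 in VEC-null 1, 2 and 3, against 112 to 166 in VEC-positive, most of it from *Itgam* (405, 389 and 83.3 in VEC-null). *Cd68* was highest in VEC-null 3 (10.7, 15.8 and 36.4), and *Ptprc* was at or under 3.23 throughout. Stem cell genes (3 found) had a summed level of 3.15 to 9.18 in VEC-null, against 0.974 to 12.9 in VEC-positive. Their part in the results was not tested. Reads of the 37 genes made up 0.752%, 0.826% and 1.16% of the total in VEC-null 1, 2 and 3, against 0.585%, 0.564% and 0.555% in VEC-positive 1, 2 and 3.

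Between the lines, the ER genes moved in both directions. In VEC-positive, 5 of 10 general chaperones and oxidoreductases were lower and 1 was higher. Of 13 collagen-directed genes 4 were higher and 2 lower. The messages of the sensors PERK and ATF6 were higher, while that of the stress factor CHOP was lower. In the whole set, 9 genes passed upward, 9 downward and 19 not at all (limma on log2 values, adjusted p under 0.05 over all tested genes). Among all 14032 tested genes 37.3% passed, 20.9% higher and 16.4% lower, so the number of calls alone does little to set the 37 apart. The median log2 fold change of the 37 was -0.09, and that of all tested genes was -0.01. Groups did not overlap for 9 that were higher and 13 that were lower, where 27.2% and 22.8% of all tested genes did so. In bulk RNA, fewer cells of a kind and less RNA per cell cannot be told apart.

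Without VEC-null 3, 13 of the 37 were higher and 10 lower (background 27.7% and 23%). The count of lower genes varied with the library left out: it was 13 without VEC-null 1, 5 without VEC-null 2 and 3, 5 and 4 without VEC-positive 1, 2 and 3. Lower calls among all tested genes fell from 2304 of 14032 to 1730 of 13551 without VEC-null 1, where the members' count rose. They fell to 1627 of 13524 without VEC-null 2. They were 1572 of 13635, 1618 of 13695 and 1659 of 13618 without VEC-positive 1, 2 and 3. Without VEC-positive 1 the count of higher members was 6, where 1927 of all tested genes were higher. Scaling the libraries to equal totals moved the median of all genes to -0.32 and gave 4 higher and 20 lower (background 11.2% and 35.3%). With that scaling the median of the 37 was -0.40. Of the 18 genes called, 9 kept their call in every fit that left out 1 library: *Pdia4*, *Pdia6*, *P3h3*, *Dnajb11*, *P4ha2*, *Fkbp9*, *Eif2ak3*, *Atf6* and *Dnajc3*.

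**Figure D1:**
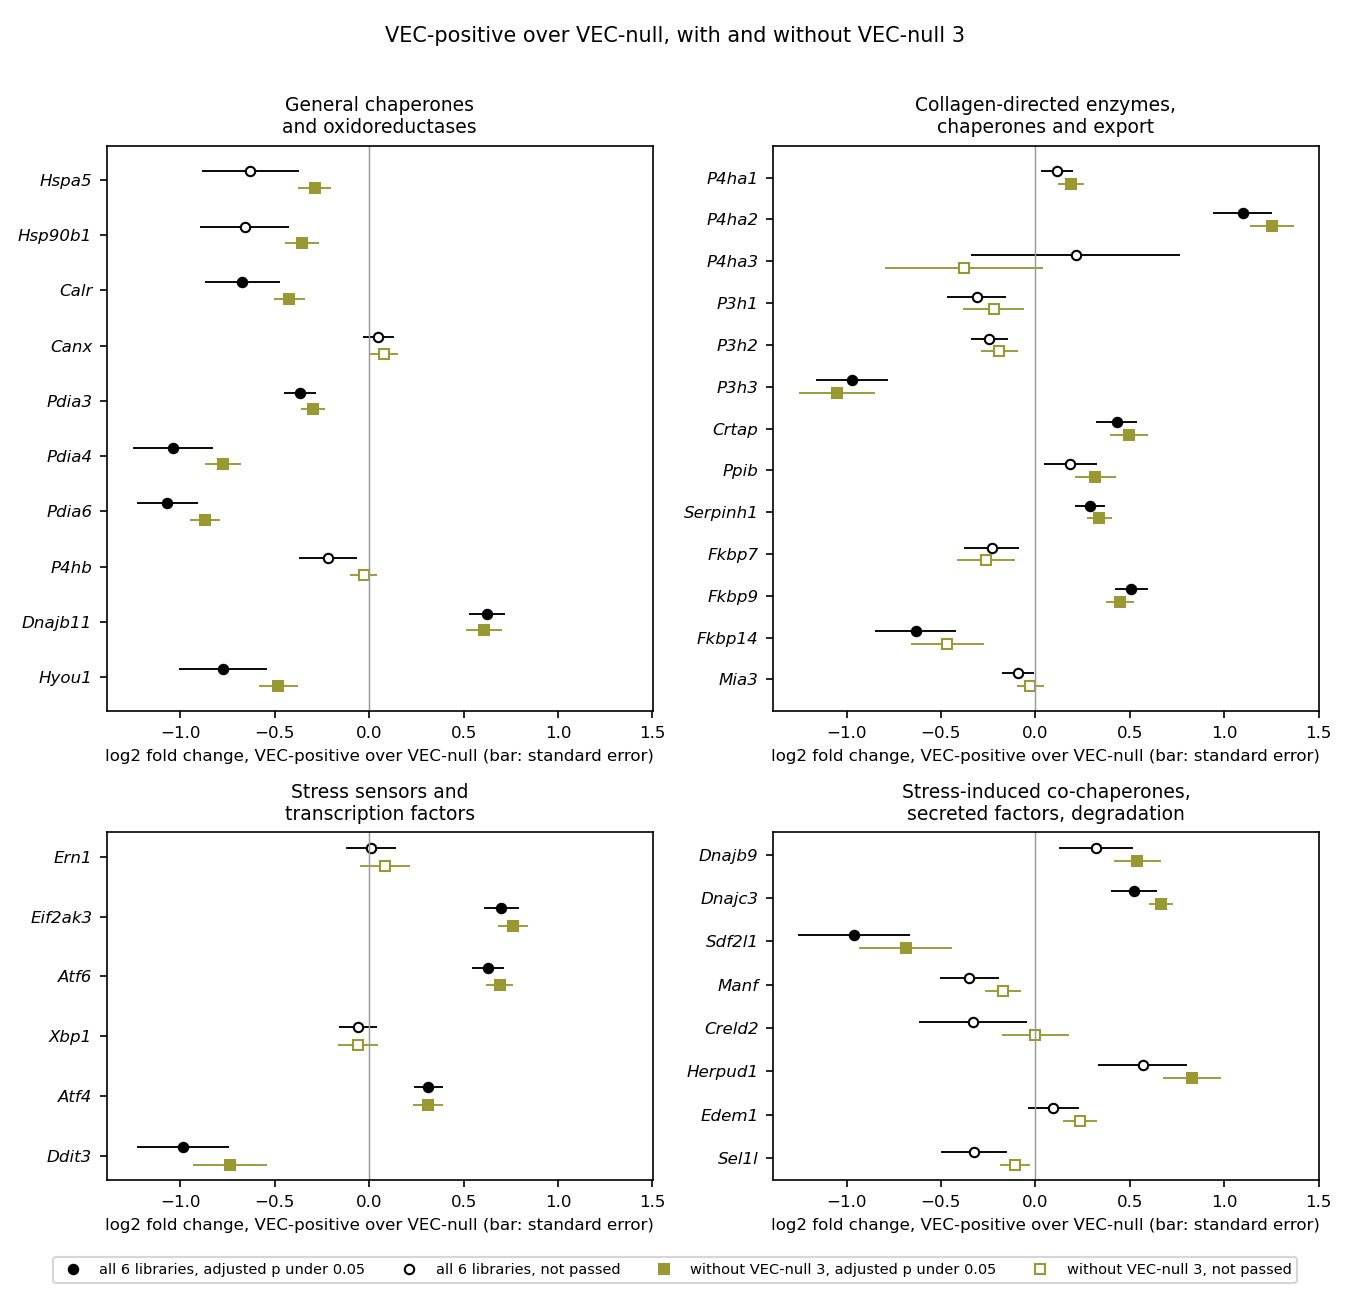
Log2 fold change between the lines, positive where VEC-positive is higher (horizontal axis, with its standard error) of each of the 37 genes in 4 roles, from all 6 libraries (circles) and without VEC-null 3 (squares), filled where the adjusted p was under 0.05. *Hspa5* and *Hsp90b1* are open from all 6 libraries and filled without VEC-null 3, and *P4ha2* is the farthest to the right, with its circle at 1.10 and its square at 1.25.

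Of the 10 general chaperones, which include the 5 messages with the highest level per kilobase of exon in VEC-null, 5 fell in VEC-positive, 1 rose and 4 did not pass. Their median log2 fold change was -0.64, and -0.33 without VEC-null 3, when 7 were lower and 1 higher. With equal totals 9 were lower and 1 higher (median -0.96). *Hspa5* encodes BiP, the ER member of the Hsp70 family and the hub of the stress response (ENSMUSG00000026864, chromosome 2, 34771970 to 34777547 of mm10). Its normalized counts were 5562, 6753 and 12446 in VEC-null 1, 2 and 3, against 5012, 5211 and 4829.7 in VEC-positive 1, 2 and 3. All 3 VEC-positive values were below the lowest VEC-null value, but VEC-null 3 was 2.02-fold above the mean of the other VEC-null libraries, and the gene did not pass (log2 fold change -0.63, standard error 0.26, adjusted p = 0.0915). Without VEC-null 3 it passed with a smaller change (log2 fold change -0.29, adjusted p = 0.0231), and without VEC-null 1 with a larger one (log2 fold change -0.87, adjusted p = 0.0262). It was also lower with equal totals (log2 fold change -0.94, adjusted p = 0.0164).

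*Hsp90b1*, the ER form of Hsp90 (GRP94), had 10437, 12472 and 21417 normalized counts in VEC-null against 8939, 9313 and 8497 in VEC-positive. As with *Hspa5* the groups were separate, VEC-null 3 was far above the rest (1.87-fold over VEC-null 1 and 2), and the gene did not pass (log2 fold change -0.66, standard error 0.23, adjusted p = 0.0584) until VEC-null 3 (log2 fold change -0.36, adjusted p = 0.00979) or VEC-null 1 (adjusted p = 0.0185) was left out. It also passed in edgeR on the recovered reads (adjusted p = 0.0376) and with equal totals (log2 fold change -0.97, adjusted p = 0.00955). In DESeq2 on those reads *Hsp90b1* did not pass (adjusted p = 0.0560), and neither did it in most other fits (13 of 18 alternatives in all). *Calr* encodes calreticulin, the soluble lectin that holds new glycoproteins, and had the highest level per kilobase of exon of the 37 genes in both lines. It fell from 12762, 14892 and 23161 normalized counts in VEC-null to 10104, 10486 and 10259 in VEC-positive (log2 fold change -0.67, standard error 0.20, adjusted p = 0.0293), and the call was lost without VEC-null 2 or VEC-positive 1, 2 or 3 (adjusted p = 0.0503 to 0.0922). Without VEC-null 3 the fall was smaller (log2 fold change -0.42, adjusted p = 0.00267). *Canx*, the membrane-bound lectin calnexin, behaved differently, at 8492, 7828 and 8646 in VEC-null against 8899, 8751 and 8156 in VEC-positive. Its groups overlapped, VEC-null 3 was not apart (1.06-fold) and it did not pass (log2 fold change 0.05, adjusted p = 0.671), although it was lower after scaling to equal totals (log2 fold change -0.26, adjusted p = 0.0312).

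Among the oxidoreductases, *Pdia6* and *Pdia4* had the largest falls of the group. *Pdia6* had 1137, 1113 and 1706 normalized counts in VEC-null against 615, 660.5 and 574 in VEC-positive (log2 fold change -1.07, standard error 0.16, adjusted p = 0.00137). *Pdia4* had 2541, 3059 and 4844 in VEC-null against 1620.1, 1765 and 1518 in VEC-positive (log2 fold change -1.04, standard error 0.21, adjusted p = 0.00582). In both, every VEC-positive library was well below every VEC-null library, and VEC-positive stood at 0.548 and 0.584 of the mean of VEC-null 1 and 2 alone. *Pdia3*, which works on glycoproteins held by the lectins, fell less, from 9704, 10014 and 11385 in VEC-null to 8091, 7939 and 8026 in VEC-positive (log2 fold change -0.37, standard error 0.086, adjusted p = 0.0118), and lost the call without VEC-positive 1 or 2 (adjusted p = 0.05 to 0.0541). *P4hb* encodes protein disulfide isomerase itself and is also the beta subunit of collagen prolyl 4-hydroxylase. It did not pass, with 3013, 3426 and 4754 in VEC-null against 3157, 3216 and 3068 in VEC-positive (log2 fold change -0.22, adjusted p = 0.299), and the groups overlapped, with VEC-null 3 above all other libraries.

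The co-factors of BiP parted. *Hyou1*, the large chaperone that exchanges its nucleotide, had 814, 1057 and 1712 normalized counts in VEC-null against 675, 651 and 667 in VEC-positive (log2 fold change -0.78, standard error 0.23, adjusted p = 0.0314). The groups were separate, and the call was lost without VEC-null 2 or VEC-positive 1, 2 or 3 (adjusted p = 0.0636 to 0.0924). Without VEC-null 3 it was lower by less (log2 fold change -0.48, adjusted p = 0.00458). *Dnajb11*, the J-domain protein ERdj3 that brings substrates to BiP, was the 1 general chaperone that rose, from 788, 705 and 721 in VEC-null to 1159, 1241 and 1017 in VEC-positive (log2 fold change 0.62, standard error 0.095, adjusted p = 0.00142). VEC-null 3 was the highest VEC-null library for the other 9 general chaperones but not for *Dnajb11*.

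**Figure D2:**
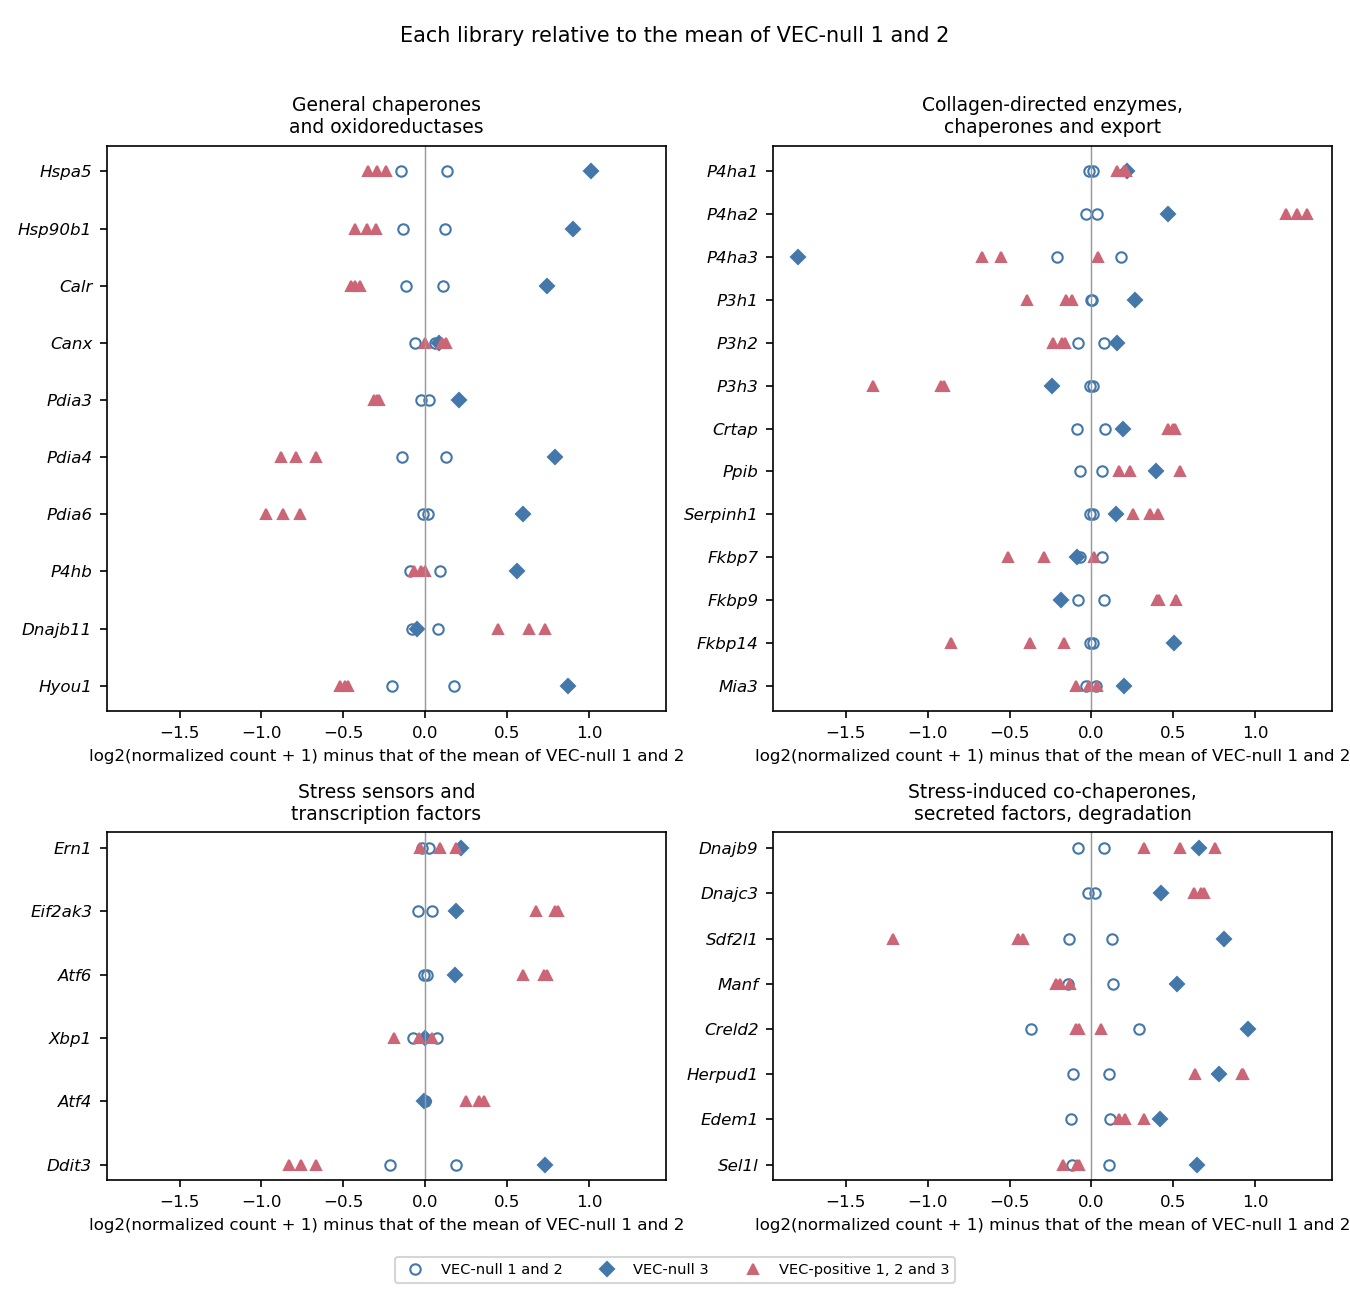
Each point is 1 library, placed by its log2(normalized count + 1) minus that of the mean of VEC-null 1 and 2 (horizontal axis); open circles are VEC-null 1 and 2, diamonds VEC-null 3 and triangles the 3 VEC-positive libraries. Diamonds of *Hspa5*, *Hsp90b1*, *Calr*, *Pdia4* and *Hyou1* lie far to the right of all other points, while triangles of *P4ha2*, *Eif2ak3* and *Atf6* lie to the right of every VEC-null library.

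The promoters of these genes were read for known stress elements, in RefSeq windows of GRCm38.p6 (the assembly of mm10) from 250 bases before to 50 after a start, on both strands. Windows were found for 33 of the 37 genes. *Hyou1*, *P3h2*, *Atf6* and *Manf* had none. The ER stress element, searched as CCAAT and CCACG with 9 bases of any kind between them, was in the windows of 7 of the 33 (*Hspa5*, *Hsp90b1*, *Calr*, *Canx*, *Pdia6*, *Dnajc3* and *Creld2*) and in 0.119% of all 32851 windows. Without its last base, a search that includes the full element, it was also in those of *Pdia3*, *Pdia4* and *Herpud1*, and in 0.365% of all windows. The second form, ATTGG and CCACG with 1 base between them, was in those of *Herpud1* and *Dnajb11* and in 0.0365% of all windows. Stretches that hold one of these forms before the start are shown because *Hspa5*, *Creld2* and *Hsp90b1*, the 3 genes farthest above the other libraries in VEC-null 3, hold the full element, with the fixed letters in capitals (CGTGG and ATTGG mark the element on the other strand).
Hspa5 (chr2:34771995-34772073, plus strand): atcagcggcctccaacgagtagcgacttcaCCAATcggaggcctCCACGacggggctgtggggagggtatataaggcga
Hsp90b1 (chr10:86705503-86705686, minus strand): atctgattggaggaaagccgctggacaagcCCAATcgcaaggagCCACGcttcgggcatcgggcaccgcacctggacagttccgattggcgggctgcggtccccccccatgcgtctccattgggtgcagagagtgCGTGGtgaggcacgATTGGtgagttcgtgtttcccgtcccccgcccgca
Calr (chr8:84847045-84847123, minus strand): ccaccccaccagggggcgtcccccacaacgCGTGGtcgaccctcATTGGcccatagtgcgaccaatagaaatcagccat
Canx (chr11:50325770-50325848, minus strand): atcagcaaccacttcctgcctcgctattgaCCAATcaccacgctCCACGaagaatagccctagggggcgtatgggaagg
Pdia6 (chr12:17266461-17266539, plus strand): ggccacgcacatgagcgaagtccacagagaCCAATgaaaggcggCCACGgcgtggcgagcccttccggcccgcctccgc
Pdia4 (chr6:47813572-47813649, minus strand): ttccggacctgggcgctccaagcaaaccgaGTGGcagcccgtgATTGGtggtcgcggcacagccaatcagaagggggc
Pdia3 (chr2:121413843-121413901, plus strand): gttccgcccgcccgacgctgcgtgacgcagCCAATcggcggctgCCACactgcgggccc
Creld2 (chr15:88819490-88819568, plus strand): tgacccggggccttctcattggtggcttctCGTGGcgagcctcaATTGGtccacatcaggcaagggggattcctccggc
Dnajc3 (chr14:118937797-118937875, plus strand): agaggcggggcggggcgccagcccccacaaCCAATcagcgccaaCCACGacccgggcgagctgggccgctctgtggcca
Herpud1 (chr8:94386347-94386428, plus strand): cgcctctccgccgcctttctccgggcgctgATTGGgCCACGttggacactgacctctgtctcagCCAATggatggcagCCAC
In *Hsp90b1* the element occurred 2 times, and in *Dnajb11* the second form lay just inside the transcript. Of 3 other motifs, TGACGTGG (bound by XBP1, in 0.676% of windows) and the heat shock element, GAA, TTC and GAA with 2 bases between each (in 0.603%) were in none of the members' windows, and the ATF4 element TTGCATCA (in 0.895%) was in that of *Herpud1*. A match of letters does not show a bound site.

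The excess of VEC-null 3 was greater among the 9 genes with the full element or its second form, a grouping made with the values of that library known and so given without a test. The log2 ratio of VEC-null 3 to the mean of VEC-null 1 and 2 had a median of 0.74 over these 9 (range -0.05 to 1.02) and of 0.22 over the 24 genes whose windows held neither. At least 1.5-fold above were 6 of 9 and 5 of 24. *Canx*, *Dnajb11* and *Dnajc3* were the other 3 of the 9, with *Canx* and *Dnajb11* near VEC-null 1 and 2, and the 5 of the 24 were *Sdf2l1*, *Pdia4*, *Ddit3*, *Dnajb9* and *Sel1l*. The sets also differed in role: all 9 were general chaperones or stress-induced genes, and no collagen-directed window held either form. By role the median was 0.67 for general chaperones, 0.65 for stress-induced genes and 0.19 for both collagen-directed genes and sensors. General chaperones and stress-induced genes with neither form had 0.21 (*Pdia3*), 0.79 (*Pdia4*), 0.56 (*P4hb*), 0.66 (*Dnajb9*), 0.81 (*Sdf2l1*), 0.42 (*Edem1*) and 0.65 (*Sel1l*). The part of role was not tested. Between the lines the 9 did not move together: *Calr* and *Pdia6* were lower, *Dnajb11* and *Dnajc3* higher, and 5 did not pass.

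**Figure D3:**
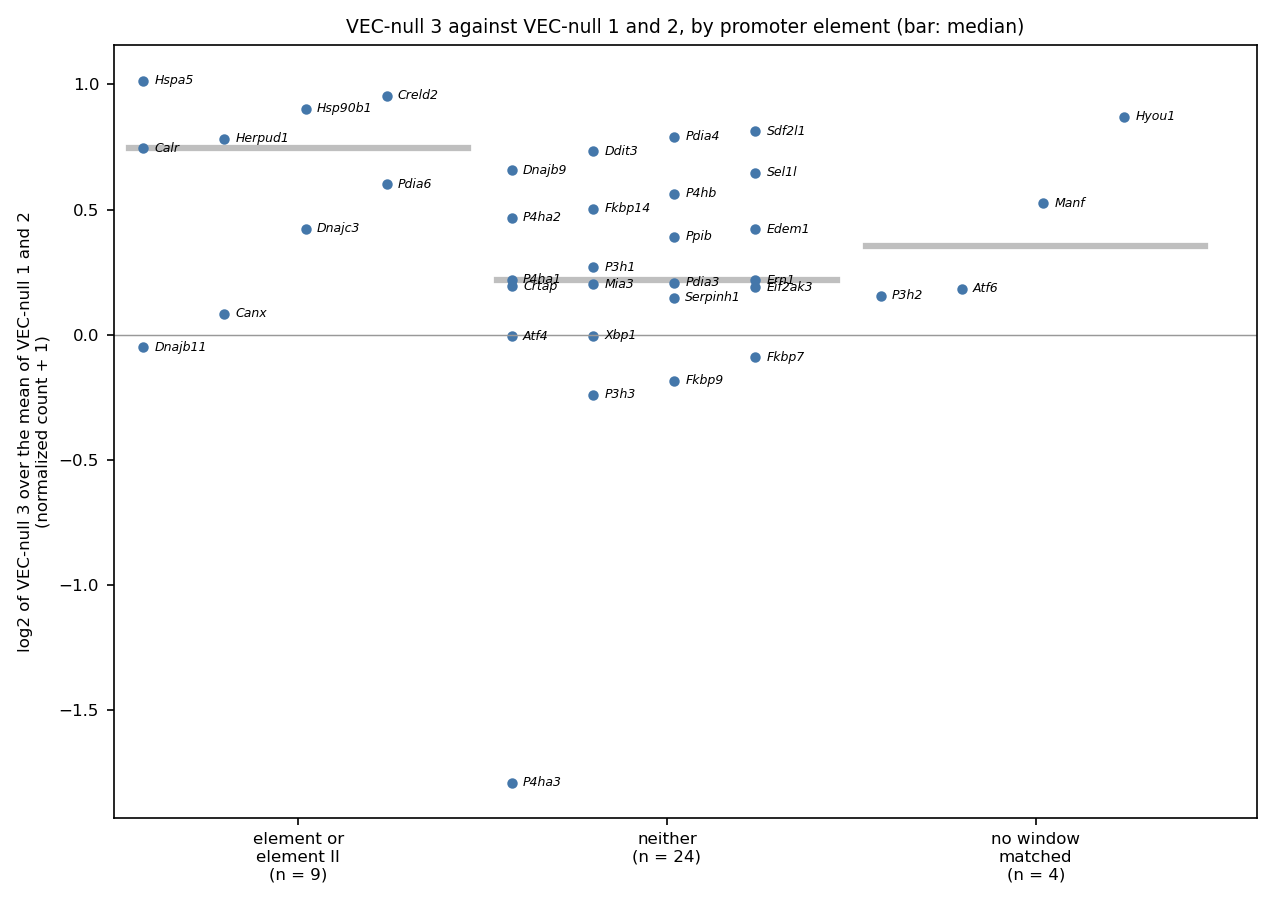
Log2 ratio of VEC-null 3 to the mean of VEC-null 1 and 2 (vertical axis, normalized count + 1) for the 37 genes, by whether the promoter window holds the ER stress element or its second form, neither, or was not matched; bars are medians and the horizontal spread has no meaning. *Hspa5*, *Creld2* and *Hsp90b1* are the highest of the genes with an element, and *P4ha3*, with few reads, is the lowest of all.

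Of the 13 collagen-directed genes, 4 rose, 2 fell and 7 did not pass, with a median log2 fold change of 0.11 (without VEC-null 3, 6 higher, 1 lower and a median of -0.03). Both medians count *P4ha3*, which had few reads and went from a log2 fold change of 0.21 to -0.38 without VEC-null 3. With libraries scaled to equal totals the direction of this role was reversed, with 1 higher, 6 lower and a median of -0.20, which is still above the -0.32 of all tested genes. None was at least 1.5-fold above the other libraries in VEC-null 3. *P4ha2* had the largest rise of the 37 genes in the limma fit. It encodes a catalytic alpha subunit of prolyl 4-hydroxylase, the enzyme that makes collagen stable at body temperature (ENSMUSG00000018906, chromosome 11, 54100095 to 54131665). Its normalized counts were 88.7, 92.9 and 126 in VEC-null against 227, 218 and 208 in VEC-positive (log2 fold change 1.10, standard error 0.16, adjusted p = 0.00101), so the lowest VEC-positive library was far above the highest VEC-null one. *P4ha1*, the main alpha subunit here, had 647, 658 and 761 in VEC-null against 750.0, 756 and 726 in VEC-positive. The groups overlapped, and it did not pass (log2 fold change 0.11, adjusted p = 0.333), and leaving out VEC-null 3 made it pass upward (log2 fold change 0.19, adjusted p = 0.0441). *P4ha3* was near the limit of detection with 16.8, 12.6 and 3.55 in VEC-null against 15.2, 9.74 and 8.88 in VEC-positive, from 4 to 16 reads a library, and a difference was not detectable at this depth (log2 fold change 0.21, standard error 0.55, adjusted p = 0.790).

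Counted per kilobase of exon, *P4ha2* made up 8.72% ± 0.937 (SD, n = 3) of the 3 alpha subunit messages in VEC-null, against 15.9% ± 0.336 (SD, n = 3) in VEC-positive. *P4ha1* went from 89.3% ± 0.378 to 82.4% ± 0.798 (SD, n = 3 each). The libraries of the 2 lines did not overlap in either share, with p = 0.1 in an exact two-sided permutation test, the smallest that 3 against 3 libraries can give. *P4ha3* made up 1.94% in VEC-null and 1.63% in VEC-positive, so the shifts of *P4ha1* and *P4ha2* are not independent results. With the longest transcript as the length the shift of *P4ha2* was 11.4 percentage points in place of 7.20.

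The prolyl 3-hydroxylases, which add a rarer modification to collagen, gave 1 call, in the other direction. *P3h3* fell from 97.9, 99.2 and 83.3 normalized counts in VEC-null to 38.5, 51.6 and 52.5 in VEC-positive (log2 fold change -0.97, standard error 0.19, adjusted p = 0.00483), with no overlap. *P3h1* had 96.4, 96.1 and 116 in VEC-null against 88.6, 73.1 and 86.3 in VEC-positive (log2 fold change -0.31, adjusted p = 0.160). *P3h2* had 275, 307 and 324 in VEC-null against 260.1, 257 and 247 in VEC-positive (log2 fold change -0.24, adjusted p = 0.0907). In both the VEC-positive libraries lay just below the VEC-null ones, and neither passed. Both were lower with equal totals (log2 fold change -0.62, adjusted p = 0.0155 for *P3h1* and log2 fold change -0.55, adjusted p = 0.00274 for *P3h2*). Per kilobase, *P3h2* was the main form in every library, and the share of *P3h3* went from 18.1% ± 2.52 (SD, n = 3) to 11.9% ± 2.01 (SD, n = 3), again with an exact permutation p = 0.1. An unnamed gene model, Gm4524, lies across 28.4% of the exon bases of *P3h2* on the other strand, so its share is uncertain if reads were counted without strand.

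**Figure D4:**
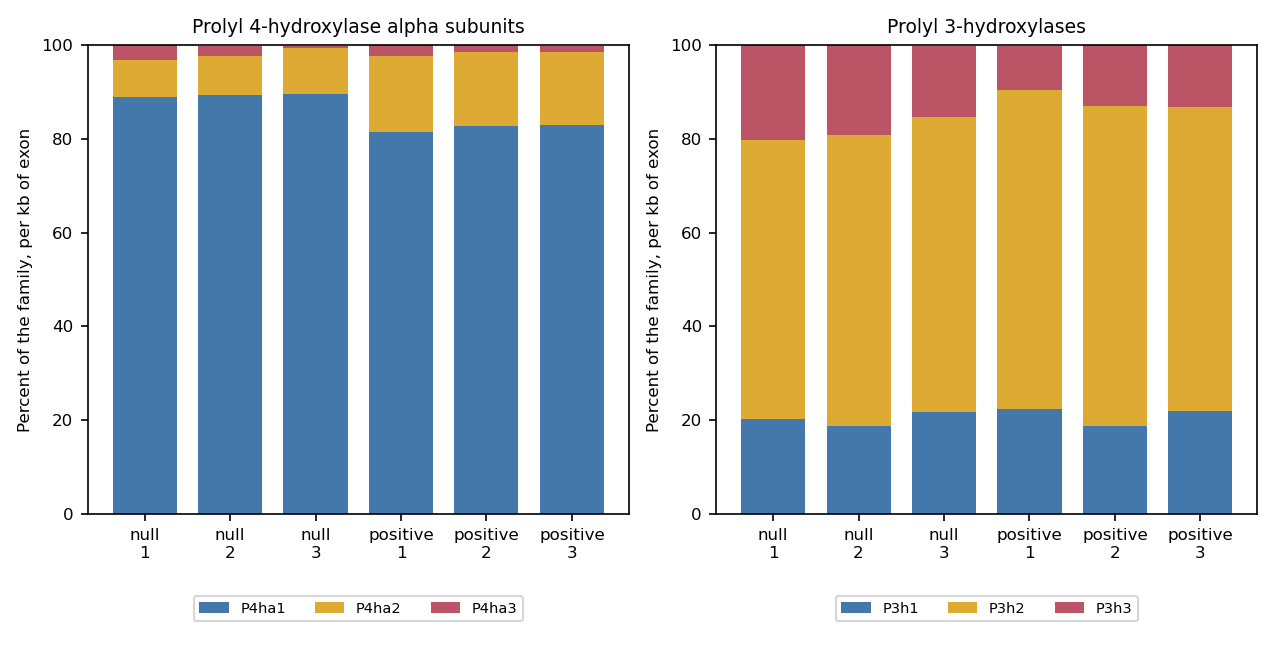
Share of each family member in every library (vertical axis, percent of the family's normalized counts per kilobase of exon; 1 bar a library), for the prolyl 4-hydroxylase alpha subunits and the prolyl 3-hydroxylases. The *P4ha2* segment is taller in the 3 VEC-positive bars, and the *P3h3* segment is shorter.

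P3H1 works in a complex with CRTAP and cyclophilin B. *Crtap* rose from 173, 195 and 210.1 normalized counts in VEC-null to 254, 260.1 and 262 in VEC-positive (log2 fold change 0.43, standard error 0.11, adjusted p = 0.0158), with separate groups, and lost its call without VEC-positive 1, 2 or 3 (adjusted p = 0.0544 to 0.0619) and with equal totals (log2 fold change 0.12, adjusted p = 0.377). *Ppib*, which encodes cyclophilin B, had 1096, 1201 and 1507 in VEC-null against 1352, 1673 and 1289.5 in VEC-positive (log2 fold change 0.19, adjusted p = 0.341). VEC-null 3 lay among the VEC-positive values, and *Ppib* passed upward once that library was left out (log2 fold change 0.32, adjusted p = 0.0372). *Snx22* shares 25.0% of the exon bases of *Ppib* on the opposite strand. Of the 3 genes of this complex only *Crtap* passed with every library in the fit, while *P3h1* had a log2 fold change of -0.31 and did not pass. Whether the genes differ in their change was not tested.

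*Serpinh1* encodes HSP47, the chaperone that binds folded procollagen, and was the most abundant collagen-directed message. It had 3206, 3163 and 3528 normalized counts in VEC-null against 4074, 4222 and 3798 in VEC-positive (log2 fold change 0.29, standard error 0.079, adjusted p = 0.0214). The groups did not overlap, and the call was lost without VEC-null 1 or 2 or VEC-positive 1 or 2 (adjusted p = 0.0633 to 0.0985), and the log2 fold change was -0.02 with libraries scaled to equal totals. Of the proline isomerases of the FK506-binding family, *Fkbp9* rose from 1056, 942 and 879.5 in VEC-null to 1429, 1319 and 1333 in VEC-positive (log2 fold change 0.51, standard error 0.087, adjusted p = 0.00263), with separate groups, but did not pass with equal totals (log2 fold change 0.20, adjusted p = 0.127). *Fkbp14*, which acts on collagen, fell from 177, 175 and 250.02 in VEC-null to 96.8, 157 and 136 in VEC-positive (log2 fold change -0.63, standard error 0.21, adjusted p = 0.0491), close to the threshold, and passed in 1 of the 6 fits that left out a library: the call was lost without VEC-null 1, 2 or 3 or VEC-positive 1 or 3 (adjusted p = 0.0643 to 0.152). *Fkbp7* overlapped between the lines (log2 fold change -0.23, adjusted p = 0.253), as did *Mia3*, which encodes the procollagen carrier TANGO1, with 1071, 1025 and 1206 in VEC-null against 1036, 1073 and 981 in VEC-positive (log2 fold change -0.09, adjusted p = 0.422).

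Of the 6 sensors and transcription factors of the stress response, 3 rose, 1 fell and 2 did not pass, while with equal totals 2 were higher and 2 lower. *Eif2ak3* encodes PERK, the kinase that slows translation under stress (ENSMUSG00000031668, chromosome 6, 70844515 to 70905245). It had 350.4, 372 and 412 normalized counts in VEC-null against 636, 627 and 579 in VEC-positive (log2 fold change 0.70, standard error 0.092, adjusted p = 0.000688). *Atf6*, the factor released from the membrane by cleavage, had 669, 659.9 and 754 in VEC-null against 1008, 1114 and 1101 in VEC-positive (log2 fold change 0.63, standard error 0.085, adjusted p = 0.000761). Both were separate between the lines, stood in VEC-null 3 at 1.141-fold and 1.136-fold the mean of the other VEC-null libraries, and kept their call in all 18 alternatives. The third sensor, *Ern1* (IRE1), overlapped, with 116, 119.7 and 137 in VEC-null against 115, 134 and 126 in VEC-positive (log2 fold change 0.01, standard error 0.13, adjusted p = 0.960).

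Downstream of these sensors the messages did not follow one direction. *Xbp1*, whose RNA is spliced by IRE1, had 280.0, 310.3 and 294 normalized counts in VEC-null against 259, 287 and 304 in VEC-positive (log2 fold change -0.06, adjusted p = 0.680), which overlapped. A count per gene does not show how much of it was spliced. *Atf4*, which is controlled mainly by translation downstream of PERK, rose from 416, 416 and 414 in VEC-null to 533, 495 and 522 in VEC-positive (log2 fold change 0.31, standard error 0.077, adjusted p = 0.0140), and lost its call without VEC-positive 1 or 3 (adjusted p = 0.0575 to 0.0698) and with equal totals (log2 fold change 0.00, adjusted p = 0.980). *Ddit3* encodes CHOP, a factor of prolonged stress and cell death, and went the opposite way, from 73.4, 97.7 and 143 in VEC-null to 50.2, 53.6 and 47.6 in VEC-positive (log2 fold change -0.99, standard error 0.25, adjusted p = 0.0148). Its groups did not overlap, VEC-null 3 was the highest of all libraries, and the call was lost without VEC-positive 1 or 3 (adjusted p = 0.0511 to 0.0537). Without VEC-null 3 it was still lower (log2 fold change -0.74, adjusted p = 0.0129).

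The 8 stress-induced genes outside the general chaperones gave 1 higher, 1 lower and 6 that did not pass, with a median log2 fold change of -0.12. Without VEC-null 3 there were 3 higher and 1 lower (median 0.12), and with equal totals 0 higher and 3 lower (median -0.43). VEC-null 3 was the highest VEC-null library for all 8, and at least 1.5-fold above VEC-null 1 and 2 for 5. *Dnajc3*, the BiP co-chaperone that also holds PERK in check, rose from 825, 799 and 1089.6 in VEC-null to 1292, 1311 and 1256 in VEC-positive (log2 fold change 0.52, standard error 0.12, adjusted p = 0.0105), above VEC-null 3 as well, and did not pass with equal totals (log2 fold change 0.21, adjusted p = 0.161). *Sdf2l1*, a partner of ERdj3, fell from 112, 134 and 216 in VEC-null to 52.5, 91.6 and 89.6 in VEC-positive (log2 fold change -0.96, standard error 0.30, adjusted p = 0.0359) with separate groups, and lost the call without VEC-null 2 or VEC-positive 1, 2 or 3 (adjusted p = 0.0549 to 0.115). *Herpud1*, a component of ER-associated degradation, had 87.2, 74.8 and 140.1 in VEC-null against 126, 155 and 154 in VEC-positive (log2 fold change 0.57, adjusted p = 0.0941). *Dnajb9*, the co-chaperone ERdj4, had 311, 347 and 519 in VEC-null against 411, 555 and 478 in VEC-positive (log2 fold change 0.32, adjusted p = 0.240). In both VEC-null 3 reached the VEC-positive values, and both passed upward once it was left out (log2 fold change 0.83, adjusted p = 0.00205 for *Herpud1* and log2 fold change 0.54, adjusted p = 0.00643 for *Dnajb9*).

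*Creld2* and *Manf*, which encode secreted stress proteins, did not pass. *Creld2* had 167, 264 and 418 normalized counts in VEC-null against 204, 224 and 202 in VEC-positive (log2 fold change -0.33, adjusted p = 0.400). All 3 VEC-positive values of *Creld2* lay between those of VEC-null 1 and 2, and its log2 fold change was -0.00033 without VEC-null 3. *Manf* had 489.6, 592 and 779 in VEC-null against 474, 466 and 493 in VEC-positive (log2 fold change -0.35, adjusted p = 0.116). Without VEC-null 1, *Creld2* (adjusted p = 0.0387), *Manf* (0.0221) and *Sel1l* (0.0468) were lower. *Sel1l*, the adaptor of the HRD1 ubiquitin ligase, had 1342, 1567 and 2279 in VEC-null against 1377, 1369.6 and 1289 in VEC-positive (log2 fold change -0.33, adjusted p = 0.180). *Edem1*, which directs misfolded glycoproteins to degradation, had 721, 612 and 893 in VEC-null against 834, 768 and 749 in VEC-positive (log2 fold change 0.09, adjusted p = 0.612). For both the groups overlapped.

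Set side by side in each library, the collagen-directed genes stood higher relative to the general chaperones in VEC-positive. The mean log2 level of the 13 collagen-directed genes minus that of the 10 general ones was -3.64, -3.79 and -4.27 in VEC-null 1, 2 and 3, against -3.43, -3.39 and -3.37 in VEC-positive 1, 2 and 3. Every VEC-positive library was above every VEC-null one, with VEC-null 3 the lowest. Since lengths are the same in all libraries, only differences between libraries can be read from these values. The medians of the log2 fold changes differed by 0.76, and by 0.30 without VEC-null 3. Under a filter of 50 normalized counts in 3 libraries, which *P4ha3* did not reach, the difference was 0.66. They differed by 0.76 with libraries scaled to equal totals. No test was made, because the genes were chosen with earlier results known. Within the general chaperones, *Dnajb11* rose and *Canx* did not pass, and within the collagen-directed genes *P3h3* and *Fkbp14* fell, so neither role moved as a whole.

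**Figure D5:**
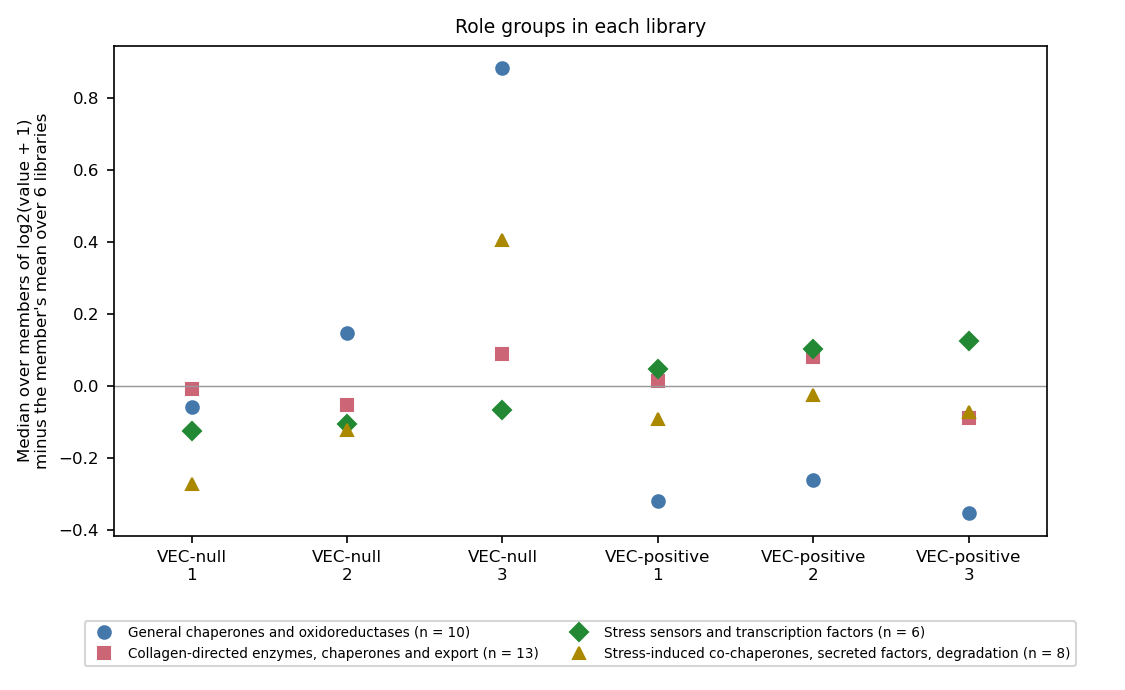
Median over the genes of each role of log2(normalized count + 1) minus that gene's mean over the 6 libraries (vertical axis), for each library (horizontal axis). General chaperones stand at 0.89 in VEC-null 3 and between -0.35 and -0.26 in VEC-positive, while collagen-directed genes stay between -0.09 and 0.09 in all 6.

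Other genes of the same pathways were taken from lists made by function, with counts of higher and lower genes and the median also given without VEC-null 3 and with libraries scaled to equal totals, and those named are among the largest changes that passed in each list. Among other genes that modify or export collagen, 6 of 15 tested were higher and 2 lower, with a median log2 fold change of 0.27 (8 and 2, median 0.46, without VEC-null 3, and 4 and 5, median -0.04, with equal totals). *Fkbp10*, a further isomerase of collagen, was listed at 0 in all 3 VEC-null libraries and at 267, 276 and 288 in VEC-positive, while *Colgalt1*, a collagen galactosyltransferase, fell slightly, with a log2 fold change of -0.37 (adjusted p = 0.00867). Of the collagen chains themselves, the cargo of these enzymes, 11 of 14 tested were higher and 1 lower (11 and 0 of 13 tested without VEC-null 3, and 10 and 1 with equal totals). *Col5a2* was at 1.53, 0 and 0 in VEC-null against 1412, 1352 and 1318 in VEC-positive, and *Col4a5* ran the other way, at 364, 355 and 391 in VEC-null and at 0 in every VEC-positive library, so that without VEC-null 3 it was above the filter in 2 libraries and not tested.

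For other ER oxidoreductases and cofactors, 6 of 17 tested were higher and 3 lower, with a median log2 fold change of 0.09 (8 and 2 of 16 tested, median 0.19, without VEC-null 3, and 0 and 6, median -0.22, with equal totals). *Ero1a*, the oxidase that recharges protein disulfide isomerase, rose by 0.96 on the log2 scale (adjusted p = 0.0162), and *Prdx4*, an ER peroxiredoxin, fell by 1.22 on the log2 scale (adjusted p = 0.000335). In the glycan and lectin cycle 2 of 13 tested were higher and 2 lower, with a median log2 fold change of -0.08 (4 and 3, median 0.02, without VEC-null 3, and 0 and 6, median -0.39, with equal totals), among them *Ganab* (0.45, adjusted p = 0.00503), a glucosidase, and *Uggt2* (-0.62, adjusted p = 0.00777), a folding sensor of glycoproteins. Of the genes of translocation into the ER 2 of 13 tested were higher and 3 lower, with a median log2 fold change of -0.07 (4 and 3, median 0.05, without VEC-null 3, and 0 and 7, median -0.38, with equal totals). In ER-associated degradation 5 of 16 tested were higher and 0 lower, with a median log2 fold change of 0.13 (7 and 0, median 0.27, without VEC-null 3, and 1 and 6, median -0.18, with equal totals), led by *Herpud2* (1.001, adjusted p = 0.00281). The shares here from all 6 libraries can be read against the 20.9% higher and 16.4% lower among all tested genes. Without VEC-null 3 that background was 27.7% and 23%, and with equal totals it was 11.2% and 35.3%.

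Targets of ATF4 and CHOP went both ways: 3 of 20 tested were higher and 3 lower, with a median log2 fold change of -0.09 (4 and 3, median -0.03, without VEC-null 3, and 2 and 10, median -0.40, with equal totals). *Vldlr*, a lipoprotein receptor that endothelium also expresses, rose the most, at 3.37 on the log2 scale (adjusted p = 4.45e-05), and *Cebpg*, a partner of ATF4, rose by 0.63 (adjusted p = 0.00158), while *Atf3* (-0.93, 0.00411) and *Phgdh* (-0.48, 0.0144), an enzyme of serine synthesis, fell. Of other kinases, membrane-bound factors and proteases of the response, 2 of 11 tested were higher and 1 lower, with a median log2 fold change of -0.03 (2 and 1, median 0.05, without VEC-null 3, and 1 and 5, median -0.34, with equal totals). *Nfe2l2*, which encodes the antioxidant factor NRF2, a substrate of PERK, rose with a log2 fold change of 1.39 (adjusted p = 6.2e-06). For heat shock genes of the cytosol and mitochondria, which answer to a different stress, 6 of 15 tested were higher and 1 lower, with a median log2 fold change of 0.04 (6 and 1, median 0.13, without VEC-null 3, and 3 and 5, median -0.27, with equal totals). *Hspa1b* and *Hspa1a*, near-identical Hsp70 genes whose reads cannot be cleanly separated, had log2 fold changes of 1.07 and 0.99. In VEC-null 3 the median log2 ratio to VEC-null 1 and 2 was 0.01 for this heat shock list, against 0.67 for the general ER chaperones and 0.08 for all tested genes.

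By level, in normalized counts per kilobase of exon, general chaperones led the order in both lines. *Calr* was highest at 5881 in VEC-null and 3571 in VEC-positive. *Hsp90b1* (3665 and 2211), *Pdia3* (3303 and 2555), *Hspa5* (1952 and 1186) and *Canx* (1773 and 1833) followed in VEC-null, while in VEC-positive *Pdia3* was second and *Canx* stood above *Serpinh1* (1350.2 and 1650.1) and *Hspa5*. Neighbours in this order, such as *Hspa5* and *Canx* in VEC-null, lay within the spread of their libraries. At the other end were *P4ha3* (3.51 and 3.59), *Ern1* (15.2 and 15.3) and *P4ha2* (16.4 and 34.9) in VEC-null. *P3h3* (23.8 and 12.1) was below both *Ern1* and *P4ha2* in VEC-positive.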

How the data were processed

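RNA of 3 VEC-null and 3 VEC-positive libraries was prepared with a stranded total RNA kit. Per the submitters' processing notes, reads were trimmed with Trim Galore, aligned to mm10 with TopHat2 (2.1.1) and normalized with DESeq2 (1.14). The counting program, its annotation and its strand setting were not given in the sources used here. What was deposited is a signal, gene counts that the authors divided by 1 size factor for each library, so whole reads could be recovered for 100% of values (within 0.01 of a read). Recovered reads ran from 6036155 to 14136376 per library, and a gene with few of them is measured less precisely.

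Symbols, coordinates and exon lengths were taken from GENCODE M21 by Ensembl identifier. Genes that reached 10 normalized counts in 3 or more libraries were kept (14032 of 24080), and log2(normalized count + 1) was fitted with limma (3.58.1, R 4.3.3) with a mean-variance trend, and two-sided p-values were adjusted by Benjamini-Hochberg across the tested genes, with calls under 0.05. Fold changes are on this scale, which understates changes of low genes. EdgeR (4.0.16) and DESeq2 (1.42.0) on the recovered reads were alternatives, and called 5323 and 4869 genes, against 5231 by limma. The fits were tested on simulated counts that held no deviating library, so a library such as VEC-null 3 was not covered. Family shares were compared by an exact permutation test.

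All 37 genes are named, and of each pathway list up to 2 genes called in each direction with the largest fold change and a mean of at least 50 normalized counts. Members and lists were chosen with earlier results of these data known. Exons on the opposite strand overlap 0.549% (*Dnajb9*) to 28.4% (*P3h2*) of the exon bases of 10 members, so without strand their reads could not be told apart. Promoter windows are RefSeq's, on GRCm38.p6.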

Additional observations from a re-analysis of the deposited data

How the results depend on the processing

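The fit was repeated under 12 other settings and without each library in turn. Scaling to equal totals gave 4 members higher and 20 lower, and turned the sign of *Canx* (-0.26), *P4ha1* (-0.20), *P4ha3* (-0.068), *Ppib* (-0.13), *Serpinh1* (-0.0216), *Ern1* (-0.30) and *Edem1* (-0.22). Genes not called in the main fit but lower with that scaling were *Hspa5*, *Hsp90b1*, *Canx*, *P4hb*, *P3h1*, *P3h2*, *Fkbp7*, *Mia3*, *Xbp1*, *Manf* and *Sel1l*. Without mitochondrial genes in the totals 5 were higher, where 2051 of all tested genes were, and *Canx* (-0.098), *P4ha1* (-0.0307), *Ern1* (-0.13) and *Edem1* (-0.051) turned. *Ern1* also turned with TMM scaling (-0.00951), edgeR (-0.0121) and DESeq2 (-0.00993). Leaving out 1 library turned the sign of *Ern1* (-0.0418 to 0.083; without VEC-null 1, VEC-null 2 or VEC-positive 2), *Xbp1* (-0.11 to 0.00516; without VEC-positive 1), *Edem1* (-0.0355 to 0.24; without VEC-null 2) and *P4ha3* (-0.38 to 0.35; without VEC-null 3), none of them called. Without the mean-variance trend 5 were lower, where 2071 of all tested genes were. Leaving out 1 library gave 6 to 13 members higher, 3 to 13 lower, and 3499 to 6943 tested genes called. The lower count was 5 without VEC-null 2 and 3, 5 and 4 without VEC-positive 1, 2 and 3, in fits with fewer samples. In those fits 1572 to 1659 of all tested genes were lower, against 2304 with every library. Without VEC-null 1 the lower count was 13, where 1730 of all tested genes were lower. The difference of the collagen-directed and general medians ran from 0.30 (without VEC-null 3) to 0.84. With the longest transcript as the length, the share of *P4ha1* shifted by -10.9 points and that of *P4ha2* by 11.4. Of single-gene values under other settings, 398 kept direction and side of the threshold, 14 newly passed, 17 no longer passed and 14 turned, and without 1 library 172 kept both, 11 newly passed, 30 no longer passed and 6 turned. Libraries of the same number did not deviate together (correlations of 0.0763, -0.333 and -0.295). With 3 libraries in each group these values cannot settle whether the numbers are a pairing, and the labels do not say. With a replicate block 7 members were higher, 8 lower and 4144 genes were called. Groups of 3 limit every test, and *P4ha3* had too few reads for a comparison.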
